A study of Danio rerio with 6 samples.

Results

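The mitochondrial ribosomal protein genes were taken as all rows of the deposited expression table whose symbol starts with mrpl or mrps. The rule found 72 genes, 44 named mrpl and 28 named mrps, among 15292 gene rows. Messenger RNA had been sequenced from the whole kidney marrow of 6 adult zebrafish, 3 grna-/- mutants and 3 of their grna+/+ siblings, with 1 marrow per library. grna encodes a granulin, a secreted protein that also reaches the lysosome, and the labels leave the mutant allele undescribed, as well as age beyond adult, sex and clutch. The labels describe straining but no sorting, so fewer cells of a type and less RNA per cell cannot be told apart in any value given here. Values are TPM, in which reads are divided by gene length and every library has the same sum, so levels of different genes can be compared within a library.

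The mitochondrial ribosome builds the few proteins that mitochondrial DNA encodes, all of them parts of the respiratory chain and ATP synthase. Its RNAs are transcribed inside the organelle, while every one of its proteins is encoded in the nucleus and imported. The small subunit reads the messenger, and the large subunit joins amino acids and passes the chain to the inner membrane. Some of the proteins descend from bacterial ribosomal proteins and others exist only in mitochondrial ribosomes. In the marrow, developing red cells depend on mitochondria for heme synthesis, and inherited defects of mitochondrial translation can cause sideroblastic anaemia in humans.

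The libraries held between 11080875 and 14075134 counted reads. grna was at 65.2, 73.98 and 71.9 TPM in grna-/- and 151, 135 and 146 TPM in grna+/+, and it fell in grna-/- (log2 fold change -1.02, SE 0.129, limma adjusted p = 0.0186). Its call was lost when grna+/+ replicate 3 or any 1 of the grna-/- libraries was left out. Of 11 tested erythroid markers 3 rose (6 with a replicate block) and none fell, with a summed level of 85847 to 101824 TPM in grna-/- and 22915 to 54510 TPM in grna+/+. Another listed marker, ba1, was not tested, as it was at 0 TPM in every library except grna+/+ replicate 1 (0.154 TPM). Of 9 tested neutrophil markers cebpa fell (5 fell with the replicate block) and none rose, with a summed level of 21897 to 40428 TPM in grna-/- and 41056 to 45945 TPM in grna+/+. The part of these shifts in the values below was not tested.

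All 72 genes were expressed at a moderate level in every library. Mean TPM over the 6 libraries ran from 16.4 for mrps33 to 114.5 for mrps15, a 7.0-fold range, with a median of 43.1 and quartiles of 35.2 and 56.8 TPM. The SD of log2 mean TPM was 0.563 over the 72 genes, against 2.17 over the 10750 genes with a mean of at least 1 TPM that were tested. Every gene of the group passed that filter, and each lay at or above the 50.3rd percentile of the tested genes by level. Most of the proteins are present once per ribosome.

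**Figure D1:**
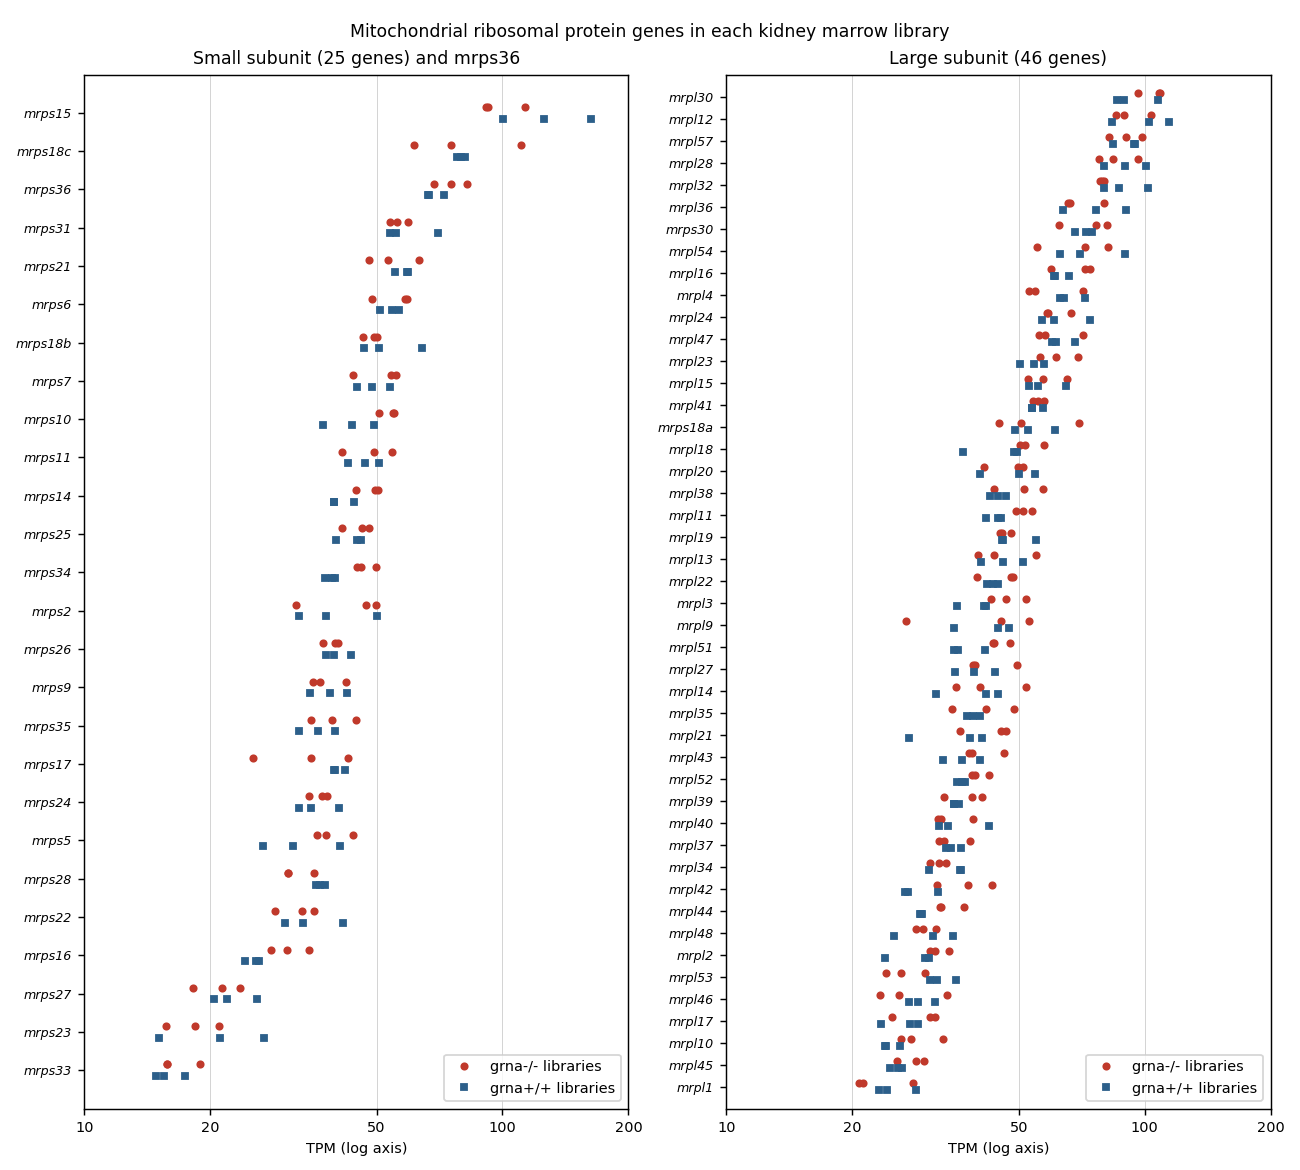
TPM (log axis) of the 72 genes in each library, small-subunit genes with mrps36 on the left and large-subunit genes on the right, ordered by mean level. Circles are the 3 grna-/- libraries and squares the 3 grna+/+ libraries; most genes lie between 20 and 100 TPM and their circles and squares intermingle.

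The 6 genes of highest mean level were mrps15, mrpl30, mrpl12, mrpl57, mrpl28 and mrpl32. mrps15, a small-subunit protein with a bacterial counterpart, was at 92.5, 91.3 and 114 TPM in grna-/- and 100.4, 163 and 126 TPM in grna+/+. mrpl30 was at 96.3, 108 and 109 TPM in grna-/- and 108, 85.9 and 89.2 TPM in grna+/+, and mrpl57, a protein found only in mitochondrial ribosomes, was at 82.05, 98.8 and 90.2 TPM in grna-/- and 83.9, 94.4 and 95.05 TPM in grna+/+. mrpl28 averaged 86.1 ± 9.57 TPM in the grna-/- marrows and 90.1 ± 10.3 TPM in grna+/+ (SD, n = 3 each). The lowest 6 were mrps33, mrps23, mrps27, mrpl1, mrpl45 and mrpl10. mrps33 was at 15.8, 15.7 and 18.9 TPM in grna-/- and 14.8, 15.5 and 17.4 TPM in grna+/+, and mrps27 averaged 21.1 ± 2.68 TPM in the grna-/- marrows and 22.8 ± 2.85 TPM in grna+/+. In these genes at both ends of the range the genotypes overlapped, except mrpl10. The 25 small-subunit genes had a median mean level of 41.6 TPM and the 46 large-subunit genes of 43.8 TPM. For that count mrps30 and mrps18a were placed in the large subunit, where their human counterparts sit, and mrps36 in neither.

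The comparison of grna-/- with grna+/+ asks whether gene expression in the marrow differed between the genotypes. None of the 72 genes passed the test in either direction. limma called 0 of 72 at an adjusted p below 0.05, where it called 1.15% of all genes tested (124 of 10750), 0.66% as higher and 0.493% as lower. With the replicate block it called 0 of 72, beside 2.52% of all genes tested. At an unadjusted p below 0.05 it also gave 0 of 72, where 17.6% of the tested genes passed, and the smallest unadjusted p was 0.0588. voom on reads recovered from the TPM called 0 of 72, beside 0.66% of all genes tested. Of 17 alternative settings 1, library weights, called any, namely mrps15 and mrpl32. Those are 2 of 72, beside 22.8% of all genes tested. At an unadjusted p below 0.05 library weights gave 9 of 72 and rescaling without the 50 highest genes gave 2. Leaving out grna-/- replicate 2 or grna+/+ replicate 1 gave 1 each. The other alternatives gave 0, and shares over all genes at that threshold are not given for these settings. In the main fit the log2 fold changes ran from -0.37 for mrps15 to 0.38 for mrpl42, and the smallest adjusted p was 0.302. The median was 0.025, with 42 genes above 0, beside 0.065 and 57.5% above 0 for all genes tested. That median changed sign with TMM scaling (-0.049), with library weights (-0.005) and without grna-/- replicate 3 (-0.018), so no direction is given to the group.

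For all 72 genes the 95% interval of the log2 fold change lay within 2-fold in either direction, from a lowest bound of -0.82 for mrps15 to a highest bound of 0.77 for mrpl42. For 58 of them (80.6%) it lay within 1.5-fold. Within 2-fold lay the intervals of 70.5% of all genes tested and 79.95% of the 4329 tested genes in the same TPM range, which include the 72. Within 1.5-fold lay those of 26.7% of all genes tested and 38.8% of the genes in that range. These are intervals per gene, with no correction for the number of genes.

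**Figure D2:**
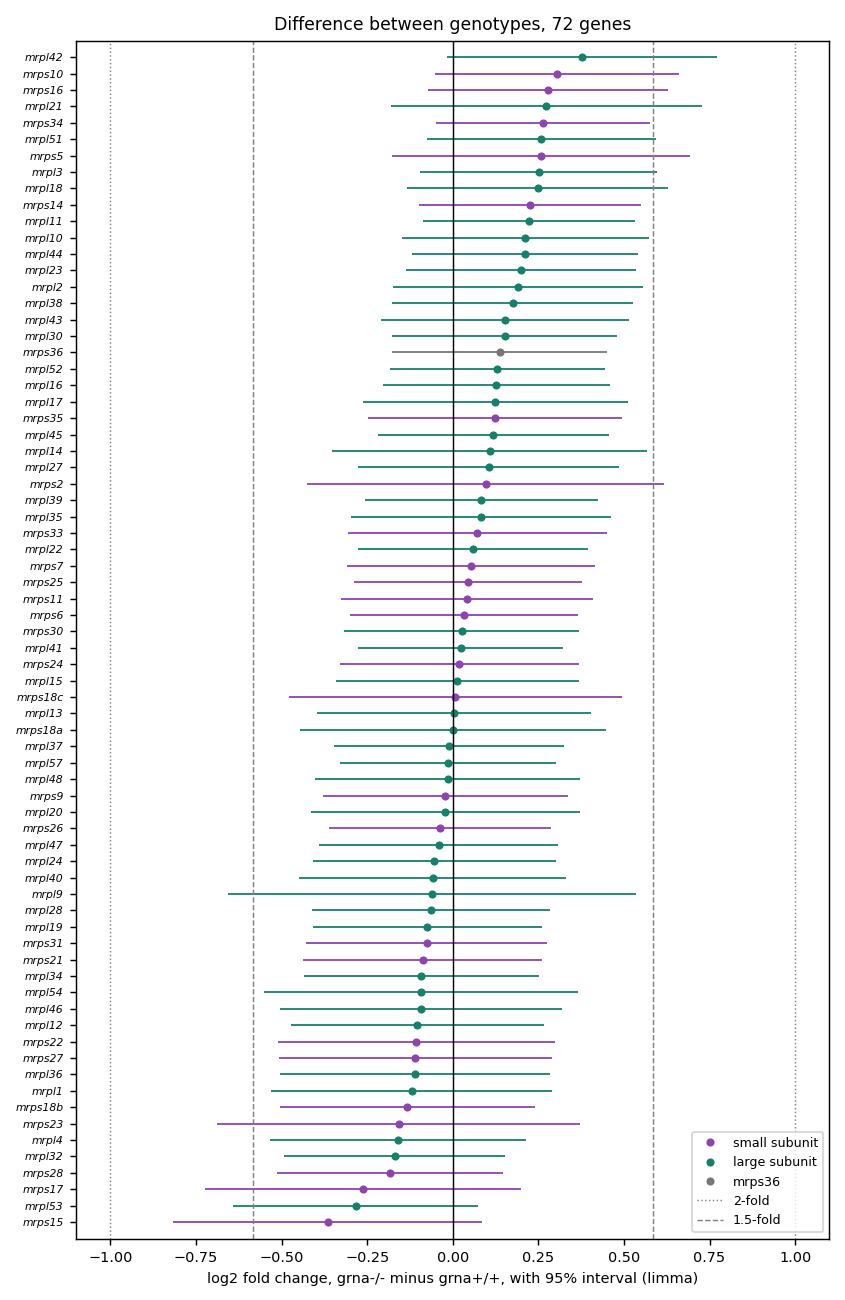
log2 fold change of grna-/- minus grna+/+ for each of the 72 genes (points) with its 95% interval from limma (lines), ordered by size. Dashed and dotted lines mark 1.5-fold and 2-fold; every interval crosses 0 and none reaches 2-fold.

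The genes varied little between the fish. The highest of the 6 libraries exceeded the lowest by a median of 1.35-fold, from 1.07-fold for mrpl41 to 1.97-fold for mrpl9. No gene of the group reached 2-fold. In the tested genes of the same TPM range the median was 1.61-fold. The residual SD on the log2 scale had a median of 0.148, beside 0.220 in that range and 0.257 over all genes tested. The coefficient of variation had a median of 10.9% in grna-/- and 9.91% in grna+/+. Each gene had between 73 and 1480 reads in a library (median 371), and counting error alone would give a median coefficient of variation of 5.15%. The difference between genotypes was as narrow: 77.8% of the 72 genes had a log2 fold change within 0.2 of 0, and 46.1% of the tested genes in the same TPM range did. These shares describe the genes and were not tested.

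**Figure D3:**
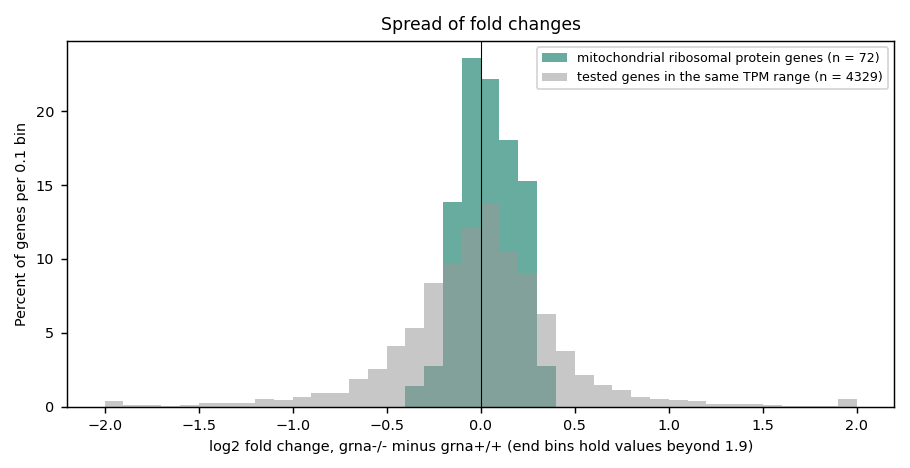
Share of genes in each 0.1-wide bin of log2 fold change (grna-/- minus grna+/+), for the 72 genes and for 4329 tested genes in the same TPM range. The 72 genes, which are also among the 4329, stay between -0.37 and 0.38, while the genes of that range spread beyond 1 in both directions.

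The 10 largest positive log2 fold changes belonged to mrpl42, mrps10, mrps16, mrpl21, mrps34, mrpl51, mrps5, mrpl3, mrpl18 and mrps14, and limma called none of them. mrpl42, a large-subunit protein with no bacterial counterpart, was at 37.9, 31.8 and 43.2 TPM in grna-/- and 26.7, 27.1 and 32.1 TPM in grna+/+. The lowest grna-/- value lay just under the highest grna+/+ value (log2 fold change 0.38, SE 0.171, adjusted p = 0.302). mrpl42 was also the gene with fewest reads, down to 73 in a library. mrps10, a small-subunit protein of bacterial descent, was at 50.8, 54.6 and 54.95 TPM in grna-/- and 43.6, 37.2 and 49.4 TPM in grna+/+ (log2 fold change 0.30, SE 0.155, adjusted p = 0.341). All 3 grna-/- libraries were above all 3 grna+/+ libraries. mrps34, a small-subunit protein specific to mitochondria, was at 44.96, 49.8 and 45.9 TPM in grna-/- and 39.05, 37.6 and 39.8 TPM in grna+/+, again without overlap and with little spread (log2 fold change 0.26, SE 0.136, adjusted p = 0.344). mrps16, whose human counterpart is mutated in a disorder of the respiratory chain, was at 30.6, 28.01 and 34.5 TPM in grna-/- and 24.2, 25.7 and 26.1 TPM in grna+/+ (95% interval -0.072 to 0.63, adjusted p = 0.367).

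mrpl51 averaged 44.9 ± 2.34 TPM in the grna-/- marrows and 37.5 ± 3.57 TPM in grna+/+, and mrpl18, which belongs to the central protuberance of the large subunit, averaged 53.2 ± 3.81 TPM in the grna-/- marrows and 44.99 ± 7.15 TPM in grna+/+ (SD, n = 3 each). In both, the genotypes did not overlap, and the adjusted p values were 0.379 and 0.447. mrps14 was at 49.5, 50.4 and 44.7 TPM in grna-/- and 39.5, 39.5 and 44.05 TPM in grna+/+, separated by a gap of less than 1 TPM between grna-/- replicate 3 and grna+/+ replicate 3. mrpl21 averaged 42.7 ± 5.64 TPM in the grna-/- marrows and 35.5 ± 7.21 TPM in grna+/+, with the lowest value, 27.3 TPM, in grna+/+ replicate 2. mrps5 averaged 39.2 ± 4.04 TPM in the grna-/- marrows and 33.03 ± 7.11 TPM in grna+/+, and there grna+/+ replicate 3 reached 40.8 TPM and overlapped with the mutants.

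The 10 most negative log2 fold changes belonged to mrps15, mrpl53, mrps17, mrps28, mrpl32, mrpl4, mrps23, mrps18b, mrpl1 and mrpl36, none of them called. mrps15 had its highest level, 163 TPM, in grna+/+ replicate 2, and grna-/- replicate 3 overlapped with the grna+/+ libraries (log2 fold change -0.37, SE 0.196, adjusted p = 0.361). Weighting the libraries, which called 22.8% of all genes tested, gave mrps15 a log2 fold change of -0.392 with an adjusted p of 0.043, and the adjusted p ran from 0.149 to 0.701 over the other alternatives. mrpl53 was at 26.1, 24.1 and 29.8 TPM in grna-/- and 30.6, 35.4 and 31.9 TPM in grna+/+, without overlap (log2 fold change -0.28, SE 0.156, adjusted p = 0.369). mrps28, the counterpart of bacterial S1, was at 30.6, 30.8 and 35.4 TPM in grna-/- and 36.6, 37.7 and 35.9 TPM in grna+/+, and the genotypes were separated by less than 1 TPM. mrps17 was at 34.8, 25.3 and 42.7 TPM in grna-/- and 39.8, 41.98 and 39.6 TPM in grna+/+, where grna-/- replicate 2 was the lowest value and grna-/- replicate 3 the highest. mrpl32 averaged 79.2 ± 0.955 TPM in the grna-/- marrows and 89.6 ± 11.2 TPM in grna+/+ (log2 fold change -0.17, SE 0.141, adjusted p = 0.535). With library weights its adjusted p was 0.0468, and over the other alternatives it ran from 0.341 to 0.86. In yeast, mrpl32's counterpart is processed by a mitochondrial protease before ribosomes assemble. mrps23 averaged 18.4 ± 2.65 TPM in the grna-/- marrows and 21.04 ± 5.90 TPM in grna+/+, mrpl1 23.3 ± 4.05 TPM in the grna-/- marrows and 25.3 ± 2.72 TPM in grna+/+ and mrpl36 70.6 ± 8.16 TPM in the grna-/- marrows and 76.8 ± 13.3 TPM in grna+/+, each with overlapping genotypes.

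In all, 14 of 72 genes (19.4%) had no overlap between genotypes, 12 with the grna-/- libraries higher and 2 with them lower. Among all genes tested 24.6% did not overlap, so the share in the group was not above that of the table. Among those genes, 56.9% had grna-/- higher and 43.1% had grna-/- lower. Besides those given above they were mrpl2, mrpl3, mrpl10, mrpl11, mrpl44 and, named only for its lack of overlap, mrpl52.

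The genes were read by the place of their product in the ribosome, from lists drawn up with earlier results of these data known. The stalk recruits translation factors and is built from the products of mrpl10, mrpl11 and mrpl12. mrpl10, its base, was at 26.1, 27.6 and 32.9 TPM in grna-/- and 23.98, 26.1 and 24.1 TPM in grna+/+, and mrpl11 was at 49.2, 53.8 and 51.2 TPM in grna-/- and 45.4, 41.7 and 44.7 TPM in grna+/+. Both had the grna-/- libraries above the grna+/+ libraries, with adjusted p of 0.489 and 0.409. mrpl12, the multi-copy stalk protein, was at 85.3, 89.2 and 104 TPM in grna-/- and 83.7, 114 and 102 TPM in grna+/+, with full overlap and an estimate on the other side of 0 (log2 fold change -0.10, SE 0.161, adjusted p = 0.758). mrpl12 was present at several times the TPM of mrpl10 in every library, as a level per length.

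Of 4 genes listed for the decoding site of the small subunit, 3 had a row under the symbols looked up. Of these, mrps5 was given above. mrps7, next to the path of the tRNA, was at 43.9, 55.6 and 54.1 TPM in grna-/- and 53.8, 48.8 and 44.9 TPM in grna+/+ (log2 fold change 0.054). mrps9, which reaches the same site with its tail, was at 35.3, 36.6 and 42.3 TPM in grna-/- and 42.5, 34.7 and 38.8 TPM in grna+/+ (log2 fold change -0.021, 95% interval -0.38 to 0.34). Neither gene separated the genotypes.

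The centre that joins amino acids and the tunnel that leads the new chain away are lined by products of mrpl2, mrpl3, mrpl4, mrpl16, mrpl22 and mrpl27. mrpl3, which has a mutated counterpart in human mitochondrial cardiomyopathy, was at 46.7, 42.9 and 51.9 TPM in grna-/- and 41.2, 35.6 and 41.7 TPM in grna+/+, without overlap (log2 fold change 0.25, SE 0.151, adjusted p = 0.408). mrpl2 was at 31.6, 30.8 and 34.02 TPM in grna-/- and 30.6, 29.9 and 24.0 TPM in grna+/+, also without overlap. mrpl4 had an estimate below 0 and did not separate the genotypes, with 53.05, 54.6 and 71.3 TPM in grna-/- and 62.8, 72.05 and 64.05 TPM in grna+/+. mrpl16 averaged 68.7 ± 7.75 TPM in the grna-/- marrows and 62.6 ± 2.77 TPM in grna+/+, mrpl22 45.3 ± 4.80 TPM in the grna-/- marrows and 43.3 ± 1.25 TPM in grna+/+ and mrpl27 42.6 ± 5.99 TPM in the grna-/- marrows and 39.4 ± 4.29 TPM in grna+/+. Of the 6 genes 5 had an estimate above 0, their median was 0.12, and none was called. Over all genes tested 57.5% had an estimate above 0 and the median was 0.065.

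The exit of the tunnel faces the inner membrane. mrpl45, which anchors the ribosome there, was at 28.4, 25.5 and 29.6 TPM in grna-/- and 26.2, 24.6 and 25.8 TPM in grna+/+ (95% interval -0.22 to 0.46). mrpl44, a relative of ribonuclease III, was the steadiest of the exit genes in grna+/+, at 32.3, 32.5 and 37.1 TPM in grna-/- and 29.1, 29.3 and 29.1 TPM in grna+/+. The grna-/- values lay above (log2 fold change 0.21, SE 0.143, adjusted p = 0.455). mrpl23 averaged 62.3 ± 6.76 TPM in the grna-/- marrows and 54.02 ± 3.59 TPM in grna+/+, mrpl39 37.6 ± 4.02 TPM in the grna-/- marrows and 35.3 ± 0.537 TPM in grna+/+, mrpl24 61.3 ± 4.61 TPM in the grna-/- marrows and 63.9 ± 8.99 TPM in grna+/+ and mrpl47 61.6 ± 8.25 TPM in the grna-/- marrows and 63.2 ± 4.43 TPM in grna+/+. mrpl24, mrpl45 and mrpl47 are among 22 of the 72 genes that overlap another gene in the RefSeq table, 17 of them a protein-coding gene. Those 17 also include mrpl2, mrpl4, mrpl9, mrpl11, mrpl16, mrpl22, mrpl51, mrpl53 and mrps18b. The library kit keeps strand, but no source used here says whether the counts were made by strand, so reads of such pairs may be shared.

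The group holds 1 set of lettered paralogs. mrps18a, mrps18b and mrps18c all descend from bacterial S18. mrps18c was at 61.4, 75.2 and 111 TPM in grna-/- and 77.8, 81.4 and 79.5 TPM in grna+/+, so that the 3 grna-/- libraries spanned the narrow grna+/+ range on both sides. mrps18a was at 44.8, 50.6 and 69.8 TPM in grna-/- and 61.2, 49.1 and 52.6 TPM in grna+/+, with grna-/- replicate 3 again the highest. mrps18b was at 50.03, 49.3 and 46.5 TPM in grna-/- and 50.8, 64.1 and 46.6 TPM in grna+/+, where grna+/+ replicate 2 was the highest and grna-/- replicate 3 the lowest library. The log2 fold changes were 0.0077 for mrps18c, 0.00091 for mrps18a and -0.13 for mrps18b, with adjusted p of 0.988, 0.998 and 0.684. Without grna-/- replicate 3 those of mrps18c and mrps18a were -0.224 and -0.18.

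Some genes carry the name without the usual role or place. mrps36 is listed in RefSeq as kgd4, a subunit of the ketoglutarate dehydrogenase complex of the citric acid cycle, and it was at 68.8, 75.4 and 82.4 TPM in grna-/- and 66.6, 66.5 and 72.3 TPM in grna+/+ (adjusted p = 0.612). mrps30, a large-subunit protein despite its name, averaged 73.5 ± 9.80 TPM in the grna-/- marrows and 71.7 ± 3.41 TPM in grna+/+. mrps11 and mrpl46 are the only pair of the 72 that directly follow each other in the RefSeq gene order, while mrpl9 and mrpl24 both overlap mllt11. mrps11 was at 41.4, 49.4 and 54.4 TPM in grna-/- and 50.7, 46.97 and 42.8 TPM in grna+/+ and mrpl46 at 23.3, 25.8 and 33.6 TPM in grna-/- and 27.3, 31.6 and 28.8 TPM in grna+/+, and neither separated the genotypes. mrpl41 was the gene that varied least over the 6 libraries, at 55.6, 57.5 and 53.96 TPM in grna-/- and 53.7, 53.6 and 57.0 TPM in grna+/+. mrpl9 varied most, from 26.8 TPM in grna-/- replicate 2 to 53.0 TPM in grna-/- replicate 3. mrpl41 and mrpl9 were singled out after their values were seen.

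Summed over the 72 genes, the level was 3293, 3367 and 3831 TPM in grna-/- and 3326, 3534 and 3457 TPM in grna+/+. The mean was 3497 ± 292 TPM in grna-/- and 3439 ± 105 TPM in grna+/+ (SD, n = 3 each), a difference smaller than the spread within grna-/-. As every library has the same sum, TPM taken up by some genes is missing from the rest. hbaa1 and ba1l averaged 41600 and 41940 TPM in grna-/- and 18340 and 18810 TPM in grna+/+. The part of this in the sums of the 72 genes was not tested. The ratio of summed small-subunit to large-subunit TPM was 0.470, 0.499 and 0.476 in grna-/- and 0.489, 0.520 and 0.483 in grna+/+, and the genotypes overlapped. grna-/- replicate 3 stood above the rest: 35 of 72 genes (48.6%) had their highest value there and 1 its lowest, where 22.2% of all genes tested had their highest value. The median deviation of the 72 genes from their own means was 0.15 on the log2 scale in that library, and between -0.062 and -0.0057 in the other 5. Over all genes tested it was 0.057 in that library.

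Marker lists of other cell types were set beside these sums. On the macrophage, T cell, B cell, thrombocyte and progenitor lists, not described further, limma called 0 genes, beside 1.15% of all genes tested. With the replicate block it called 1, a thrombocyte gene (gp1bb), beside 2.52%. The erythroid sum was higher in each grna-/- library than in any grna+/+ library, and the neutrophil sum was lower in each, while the mitoribosomal sums overlapped. Most of the erythroid sum was hbaa1 and ba1l, whose genotypes did not overlap but which limma did not call (adjusted p = 0.0818 and 0.0838). Most of the neutrophil sum was lyz, whose genotypes overlapped (log2 fold change -0.37, limma adjusted p = 0.405). Proliferation markers, of which none of 10 was called, summed to 1199, 1049 and 1304 TPM in grna-/- and 1058, 715 and 1044 TPM in grna+/+, highest in grna-/- replicate 3. All 10 had a log2 fold change above 0, with a median of 0.32, beside 57.5% above 0 for all genes tested. Kidney tubule markers summed to 1973, 3396 and 1672 TPM in grna-/- and 1857, 1823 and 1254 TPM in grna+/+, and none of 10 was called (1 with the replicate block).

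**Figure D4:**
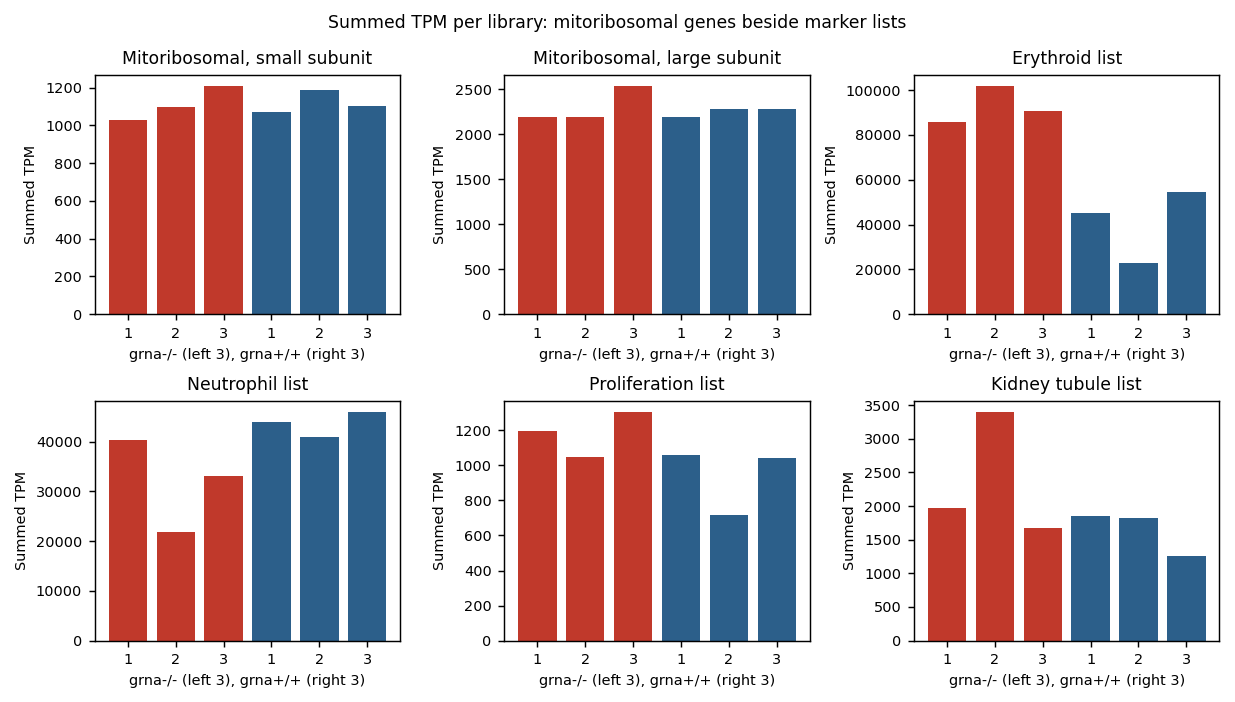
Summed TPM per library (linear axes from 0) of the small-subunit and large-subunit genes and of 4 marker lists, with the 3 grna-/- libraries left of the 3 grna+/+ libraries. The mitoribosomal sums stay within 2190 to 2539 TPM for the large subunit, while the erythroid sum ranges from 22915 to 101824 TPM.

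Other genes of mitochondrial gene expression were read from 6 lists. These cover translation and ribosome assembly, mitochondrial transcription and mRNA stability, and nuclear regulators. Not every listed gene had a row. Rows were found for 5 of 6 ribosomal proteins under other names, 10 of 13 translation factors and 16 of 25 genes on the synthetase list. For ribosome assembly 20 of 28 had a row, for mitochondrial transcription and mRNA stability 8 of 14, and for regulators 11 of 14. None of the 69 tested genes on these lists was called by limma, beside 1.15% of all genes tested. With the replicate block none was called either, beside 2.52%. Library weights called 8 of the 69, beside 22.8% of all genes tested. For 13 listed genes encoded by mitochondrial DNA no row was found under the symbols looked up, so they were not analysed here. At an unadjusted p below 0.05 there were 7 of the 69, beside 17.6% of all genes tested. Their median log2 fold change was 0.13 with 44 above 0, beside 0.065 and 57.5% above 0 over all genes tested. Ribosomal proteins under other names were read first: dap3, a small-subunit protein, averaged 36.2 ± 3.03 TPM in the grna-/- marrows and 40.6 ± 5.78 TPM in grna+/+, aurkaip1 60.3 ± 4.45 TPM in the grna-/- marrows and 65.1 ± 4.83 TPM in grna+/+ and chchd1 26.2 ± 4.45 TPM in the grna-/- marrows and 28.2 ± 4.40 TPM in grna+/+. ptcd3, a small-subunit protein with RNA-binding repeats, was at 33.1, 31.4 and 37.2 TPM in grna-/- and 28.5, 28.5 and 29.6 TPM in grna+/+, without overlap (adjusted p = 0.439). ict1, the RefSeq mrpl58 and a large-subunit protein able to release stalled chains, was at 15.6, 12.7 and 16.4 TPM in grna-/- and 10.99, 8.32 and 11.6 TPM in grna+/+ (log2 fold change 0.50, SE 0.194, adjusted p = 0.250). It stood outside the naming rule, as did a row under a provisional symbol that RefSeq names mrpl33.

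Like ict1, that mrpl33 row had a larger log2 fold change in size than any of the 72 genes. It was at 60.3, 61.4 and 58.4 TPM in grna-/- and 75.3, 126 and 101 TPM in grna+/+, with every grna-/- library below every grna+/+ library. The log2 fold change was -0.71 (SE 0.194, 95% interval -1.15 to -0.26, limma adjusted p = 0.142, or 0.0872 with the replicate block), so it was not called. The row was singled out after its values were seen.

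Log2 fold changes of the 10 tested translation factors ran from -0.84 to 0.59, a wider range than in the 72 genes. Most of these factors lay below the median level of the 72 genes, and the spreads were not compared at matched levels. tsfm, the exchange factor of the elongation factor Tu, was at 15.7, 30.1 and 25.1 TPM in grna-/- and 24.5, 66.6 and 43.9 TPM in grna+/+, with overlap (log2 fold change -0.84, SE 0.368, adjusted p = 0.286). tufm, that elongation factor, averaged 115 ± 19.3 TPM in the grna-/- marrows and 132 ± 25.7 TPM in grna+/+, and gfm1, which drives translocation, averaged 50.5 ± 10.04 TPM in the grna-/- marrows and 59.6 ± 17.2 TPM in grna+/+. mtif2, the initiation factor that brings in the first tRNA, was at 13.9, 14.1 and 16.5 TPM in grna-/- and 11.1, 6.38 and 11.96 TPM in grna+/+, without overlap (adjusted p = 0.264). Among 16 tested synthetases and amidotransferase subunits that charge mitochondrial tRNAs, 13 had estimates above 0 with a median of 0.23. Over all genes tested 57.5% were above 0, with a median of 0.065. gatb was at 9.62, 9.15 and 9.03 TPM in grna-/- and 7.10, 5.07 and 6.32 TPM in grna+/+ (adjusted p = 0.216) and fars2 at 7.52, 9.98 and 6.95 TPM in grna-/- and 4.83, 5.31 and 5.77 TPM in grna+/+ (adjusted p = 0.239), both without overlap.

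Of 20 tested genes for ribosome assembly and ribosomal RNA modification 12 had estimates above 0, with a median of 0.084. Over all genes tested 57.5% were above 0, with a median of 0.065. mpv17l2, an inner-membrane protein that associates with assembling ribosomes, was at 22.97, 21.96 and 21.7 TPM in grna-/- and 25.3, 40.7 and 30.5 TPM in grna+/+, lower in every mutant (adjusted p = 0.255). mterf3 was at 8.01, 10.9 and 11.4 TPM in grna-/- and 7.52, 5.54 and 7.71 TPM in grna+/+, higher in every mutant (adjusted p = 0.285). tfam, which packages mitochondrial DNA and starts its transcription, was at 31.4, 34.6 and 38.98 TPM in grna-/- and 25.8, 21.6 and 27.9 TPM in grna+/+ (log2 fold change 0.46, SE 0.168, adjusted p = 0.225). Among nuclear regulators of such genes, nrf1 averaged 23.9 ± 1.88 TPM in the grna-/- marrows and 19.7 ± 3.56 TPM in grna+/+ and gabpa 33.6 ± 4.08 TPM in the grna-/- marrows and 32.8 ± 1.20 TPM in grna+/+. myca, a Myc gene, was at 40.9, 46.5 and 74.5 TPM in grna-/- and 77.9, 134 and 98.8 TPM in grna+/+, lower in every mutant without passing the test (log2 fold change -0.94, SE 0.271, adjusted p = 0.153). These examples were chosen after their values were seen.

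**Figure D5:**
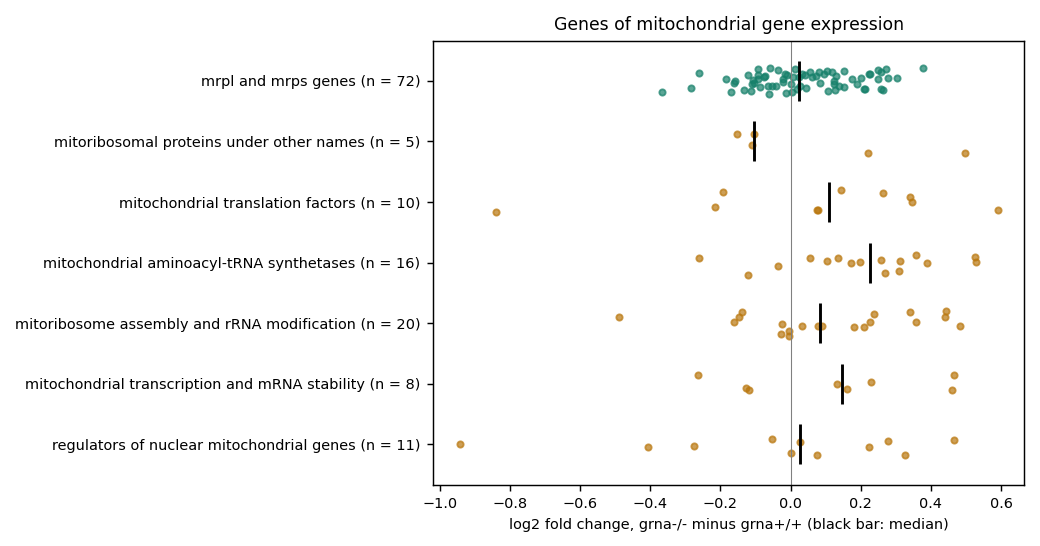
log2 fold change (grna-/- minus grna+/+) of the 72 mrpl and mrps genes and of the tested genes on 6 lists of mitochondrial gene expression, 1 point per gene in each set with a black bar at the median. tfam is on both the transcription and the regulator list and is drawn in each. The 72 genes stay between -0.37 and 0.38, while the lists reach from -0.94 for myca to 0.59 for mtif2.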

How the data were processed

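Kidney marrow RNA of 3 grna-/- and 3 grna+/+ zebrafish was sequenced as 75 bp single reads from 50 ng of RNA with an integrity number above 8, per the labels' protocols and the series' design text. The authors deposited TPM values for 15292 genes. The submitters' processing notes name featureCounts, Subread and DESeq2 1.26.0 beside the builds GRCz10 and danRer10, and no source used here says which step made the TPM. A Total row, which names no gene, was read as the number of counted reads and left out of all tests.

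The 10750 genes whose mean reached 1 TPM were tested in limma 3.58.1 (R 4.3.3) after taking log2(TPM + 1), with genotype alone and a variance trend. Tests were two-sided, with Benjamini-Hochberg adjusted p below 0.05 called over all tested genes. Every fold change is therefore on the log2(TPM + 1) scale and understates changes of low genes. Replicates were separate fish. Whole reads were recovered from TPM ratios (relative tolerance 1e-09) for each of the 11875 genes above 0 in every library. Over all 15292 genes the recovered reads made 99.27% to 99.30% of the Total row. Counting error from these reads covers counting only. This cannot reveal a factor shared by all 6 libraries of 1 gene.

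Deviations of same-numbered fish from their genotype means correlated at 0.136, 0.153 and 0.237 over all tested genes, which are not independent replicates. Differently numbered fish correlated at -0.22 to -0.0058. Deviations from genotype means balance out within each genotype, so some pairs must correlate positively. These values therefore cannot establish that the numbers in the titles pair the fish, and the design does not state it. The replicate block by those numbers was an alternative setting, and the main fit used genotype alone. A RefSeq gene table (assembly GRCz12tu) listed all 72 symbols, 1 of them as an older symbol. The table was used for names, overlaps and neighbours only, as its build differs from the authors'. Genes named are the 10 largest positive and 10 most negative fold changes, the 6 highest and 6 lowest levels, the role lists, lettered paralogs and grna, with others said to be chosen after their values were seen. The members and lists were chosen with earlier results of these data known.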

Additional observations from a re-analysis of the deposited data

How the results depend on the processing

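Of 17 alternative settings, library weights alone called any of the 72 genes, namely 2: mrps15 (-0.392) and mrpl32 (-0.326). Those weights rested mostly on grna+/+ replicate 3 (4.81) and grna-/- replicate 1 (2.94). They called 2447 genes of the table (22.8% of those tested), among them 8 of the 69 genes on the 6 other lists of mitochondrial gene expression. The replicate block called 271 genes of the table and 0 of the 72, and it changed no call among the 72. Of all tested genes 44 were called with no filter, 74 with a filter of 5 TPM, 76 with no variance trend and 71 by voom on recovered reads, an alternative chosen after seeing the data. Leaving out 1 library gave 16 (without grna+/+ replicate 3) to 204 (without grna+/+ replicate 1), with 18 without grna-/- replicate 2, 33 without grna-/- replicate 1 and 42 without grna-/- replicate 3. The median of the 72 genes ran from -0.049 with TMM scaling to 0.095 when rescaled without the 50 highest genes. In those settings 30 and 53 of the 72 were above 0, and the median over all genes tested was -0.003 and 0.135. In each setting the median of the 72 genes lay less than 0.084 from the reported 0.025. That 0.084 is the SD of the per-library median within genotype, pooled over both genotypes. It is larger than the reported median, so a median that changed sign could still lie within it.

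Signs were followed for the 42 members named by fold change, level, role list or lettered paralogs, and not for the other members named. Of these 42, 26 kept the sign of their log2 fold change in every setting and 16 did not. Those 16 were uncalled in every setting. With library weights the value was -0.011 for mrps5, 0.275 for mrps23, 0.044 for mrps18b, 0.033 for mrpl36, -0.066 for mrps33, -0.067 for mrpl27, -0.001 for mrpl39, -0.116 for mrps18a and -0.191 for mrps18c. Rescaling without the 50 highest genes gave 0.057 for mrpl57, 0.007 for mrpl28, 0.049 for mrps9, 0.017 for mrpl24 and 0.029 for mrpl47. Quantile normalization gave 0.074 for mrpl57, 0.023 for mrpl28, -0.003 for mrps33, 0.002 for mrps9, 0.011 for mrpl24 and 0.016 for mrpl47. TMM scaling gave -0.019 for mrps7, -0.013 for mrpl22, -0.073 for mrps18a and -0.067 for mrps18c. voom gave 0.024 for mrpl57 and 0.011 for mrps9. With 1 library left out, values ran from -0.367 to 0.030 for mrps23, -0.236 to 0.011 for mrpl36, -0.080 to 0.052 for mrpl57, -0.148 to 0.018 for mrpl28, -0.011 to 0.133 for mrps33, -0.008 to 0.159 for mrps7, -0.098 to 0.049 for mrps9, -0.006 to 0.182 for mrpl27, -0.131 to 0.056 for mrpl24, -0.147 to 0.023 for mrpl47, -0.180 to 0.134 for mrps18a and -0.224 to 0.196 for mrps18c. The cause was not tested. Depth limits mrpl42 most, whose counting error alone is a coefficient of variation of 10.3%.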
